A study of Mus musculus with 4 samples.

Results

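Silencing of the orphan nuclear receptor gene Nr4a3 was examined in mouse dendritic cells that had been activated with lipopolysaccharide (LPS), a component of the outer membrane of bacteria that TLR4 detects. The comparison is the difference, gene by gene, between an array of LPS-treated cells given an siRNA against NR4A3 and an array of LPS-treated cells given a control siRNA, so it uses 2 of the 4 arrays of the study. All probe sets with a single gene symbol entered it, and a gene with several was read from the brightest, which gave 19938 genes. Of these, 10210 reached a log2 level of 6.66 on the brighter of both arrays, the median level of the named genes, and are called past the filter. Levels are log2 expression values and differences are NR4A3 siRNA minus control siRNA, so a negative difference is a lower level in silenced cells. With 1 array per condition there are no residual degrees of freedom, and no difference has a replicate check or a p-value. All values have the precision that 1 array per condition gives.

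NR4A3 belongs to a small family of nuclear receptors that have no known hormone and act mainly through how much of them is made. The genes of this family are induced within hours by signals that activate immune cells. Dendritic cells sense microbes, raise co-stimulatory molecules and cytokines, lower their uptake receptors, and move through chemokine receptors to lymph nodes, where they show antigen to T cells. LPS drives this change through NF-kB and interferon regulatory factors.

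Dendritic cells were grown from whole bone marrow for 10 days in medium with 10% serum and GM-CSF at 20 ng/mL, and on day 10 siRNA was delivered by electroporation. After 24 hours the cells received LPS at 100 ng/mL or nothing, and total RNA was taken after a further 24 hours. The 4 groups were control siRNA without LPS, NR4A3 siRNA without LPS, control siRNA with LPS and NR4A3 siRNA with LPS, and all received an siRNA and electroporation. The mouse strain is C57BL/6 in the sample labels and BALB/c in the culture protocol. Separate cultures for the 4 arrays are not stated in the labels. Such cultures hold macrophage-like cells beside dendritic cells, and in bulk RNA fewer cells of a type and less RNA per cell cannot be told apart.

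The cell identity was checked on markers. Of 10 dendritic cell markers, 8 were past the filter, among them the integrin gene Itgax at 12.38 with control siRNA and 12.58 with NR4A3 siRNA, and the MHC class II gene H2-Ab1 at 12.31 and 12.27. Not all were so level: 2 were at least 1.5-fold lower in silenced cells, Ccr7 at -0.74 and Zbtb46 at -0.64. Clec9a, at 0.78, was the 1 member at least 1.5-fold higher, and the list median was -0.04. Among all genes past the filter, 4.73% were lower and 3.73% higher by as much. The dendritic cell markers Flt3 and Xcr1 stayed under the filter with LPS, at no more than 6.27 and 5.81. All 11 measured macrophage markers were past the filter too, including Csf1r, the receptor of macrophage growth factor, at 12.04 and 12.74. T cell, B cell and erythroid markers (9, 8 and 5 measured) had 0 members past the filter, with highest levels of 6.37, 6.20 and 6.38.

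The silenced gene was lower on both arrays with its siRNA, although LPS-treated cells held more of the signal than unstimulated cells. Nr4a3 stood at 11.77 with control siRNA and 9.39 with NR4A3 siRNA under LPS, against 11.21 and 7.15 without LPS. Nr4a2, a close relative with the same DNA-binding domain type, stood at 9.79 and 8.60 under LPS, against 7.79 and 7.48 without it. Nr4a1 lay between 6.74 and 6.85 on all 4 arrays. The differences with LPS were -2.38 for Nr4a3, -1.19 for Nr4a2 and 0.09 for Nr4a1, so they cannot be assigned to Nr4a3 alone.

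Large differences were mostly towards lower levels in silenced cells. At a threshold of 2-fold, 171 genes stood lower (1.67% of the genes past the filter) and 48 stood higher (0.47%). At a threshold of 4-fold, the counts were 17 lower and 1 higher. Among the 171 lower genes, 32 had an array under the filter, and so did 3 of the 48 higher genes. The fold of such a gene is approximate. As a measure of how far these arrays differ where no difference would be looked for, 1209 olfactory, vomeronasal and trace amine receptor genes had differences with an SD of 0.11 and a range of -0.66 to 0.50, and 0 of them reached 2-fold. They were dim, with a highest level of 7.77, so their spread gives no scale for brighter genes. Over all genes in 5 bins of level, the 95th percentile of the size of the difference was 0.22 in the dimmest bin and 0.74 in the brightest. The 59 ribosomal protein genes, which are bright, had an SD of 0.13 and a range of -0.40 to 0.20. These spreads describe 2 arrays and do not include the variation between cultures. Among 576 genes with several probe sets past the filter, the differences from the brightest and the next probe set lay 0.058 apart at the median and 0.33 apart at the 95th percentile. Of these, 5 genes were at least 2-fold apart by the brightest probe set. The next probe set had the same direction for 5 of the 5 and reached 2-fold for 3 of them. Some pairs, such as those of Idi1 and Pgk1, had nearly equal or identical levels on all 4 arrays. Such pairs may not be separate measurements, so this closeness may be overstated.

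**Figure D1:**
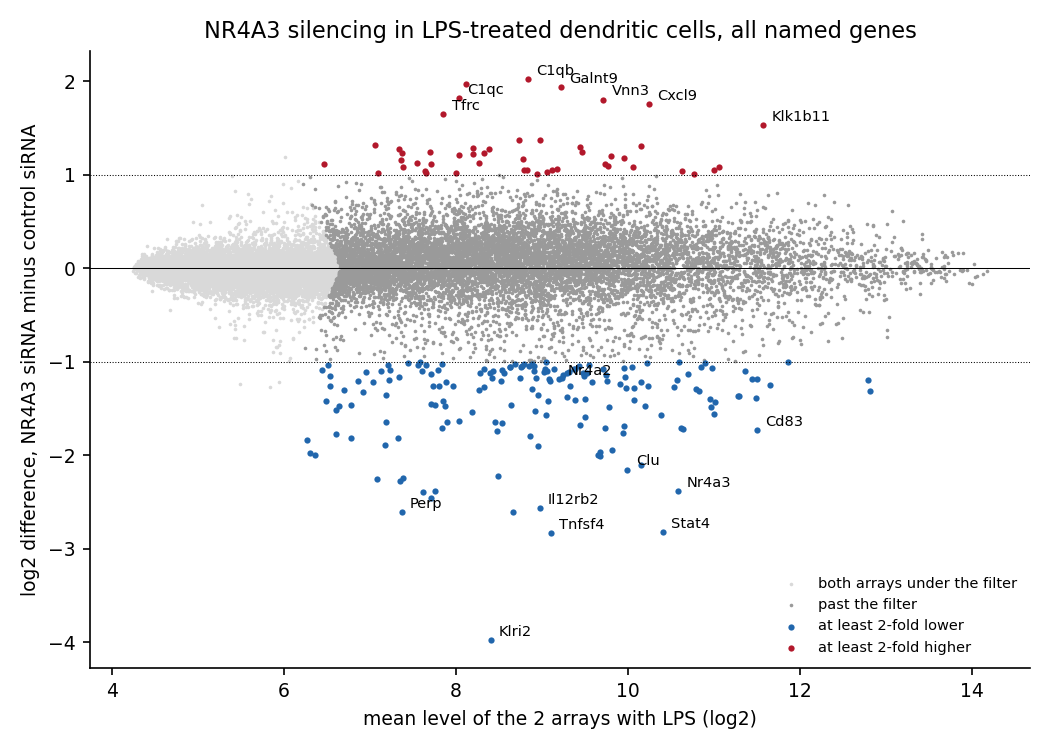
Log2 difference between NR4A3 siRNA and control siRNA under LPS (vertical axis) against the mean log2 level of both arrays (horizontal axis), 1 point per named gene. Blue points are the 171 genes past the filter that stood at least 2-fold lower and red points the 48 that stood at least 2-fold higher, and dotted lines mark 2-fold. Lower genes reach farther from 0 than higher genes, with Klri2 at -3.97 and C1qb at 2.03.

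The receptor and signal transducer of interleukin-12 were among the genes with the largest differences. Il12rb2, the receptor chain that carries the interleukin-12 signal into the cell, was at 10.25 with control siRNA and 7.68 with NR4A3 siRNA under LPS, a difference of -2.57. Without LPS its levels were 9.45 and 8.71, so the LPS-treated, silenced cells had the lowest level of the 4 arrays. Stat4, which carries the signal of that receptor to the nucleus, was at 11.81 and 8.99 under LPS, a difference of -2.82, and at 9.94 and 5.50 without it. The silenced cells were below the control cells in both states for both genes. The other receptor chain, Il12rb1, was under the filter on all 4 arrays, at 6.34 to 6.52. Of the kinases, Tyk2 had a difference of -0.55 and Jak2 one of -0.37, and Stat3, used by many cytokines, stood at 11.98 and 11.15. In the list of 10 measured receptors, kinases and STATs of the interleukin-12 family, 3 were at least 1.5-fold lower and 0 higher, against 4.73% lower and 3.73% higher among all genes past the filter. These shares are the background for every list count with LPS below, and only members past the filter are counted as lower or higher. Lists share members, so their counts are not separate. Stat3 and Stat4, for example, count again with the interferon regulatory factors and STATs. The median difference of the list was -0.29, where that of all genes was 0.0045. Promoter windows of both leading genes are given here because the genes stood lower together. They are the 250 bases before a transcription start from RefSeq (GRCm38.p6), 5′ to 3′ on the strand of the gene, from chr1:52007990-52008239 on the plus strand for an alternative Stat4 start and from chr6:67376189-67376438 on the minus strand for Il12rb2. Capitals mark a match to the interferon-stimulated response element (GAAA and GAAA with 2 bases between), which was found for Stat4 at position -97 from that start and not in the Il12rb2 window. The Stat4 window shown was chosen for this match, and the window of the other Stat4 start, chr1:51986898-51987147, held no match to this element. Letters of an NR4A element were found for Stat4 outside these 250 bases, as given with the motif counts below.
Stat4: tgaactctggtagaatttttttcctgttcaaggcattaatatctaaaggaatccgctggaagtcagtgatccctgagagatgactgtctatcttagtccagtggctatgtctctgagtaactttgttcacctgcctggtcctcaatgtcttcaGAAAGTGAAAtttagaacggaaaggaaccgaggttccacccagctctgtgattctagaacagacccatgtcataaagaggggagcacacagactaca
Il12rb2: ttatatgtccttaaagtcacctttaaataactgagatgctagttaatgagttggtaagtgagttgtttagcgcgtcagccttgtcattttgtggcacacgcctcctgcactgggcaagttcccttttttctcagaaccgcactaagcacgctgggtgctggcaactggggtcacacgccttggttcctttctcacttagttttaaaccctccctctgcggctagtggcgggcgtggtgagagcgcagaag

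Interleukin-12 itself was partly lower. Il12b, the subunit shared with interleukin-23, was at 13.47 and 12.16 under LPS, and at 8.97 and 6.18 without it. Il12a, the subunit specific to interleukin-12, was at 8.14 and 8.42 under LPS. The 2 subunits of the same cytokine therefore stood on opposite sides of 0, at -1.31 and 0.28. The partner subunits of interleukin-27, Il27 and Ebi3, had differences of -0.40 and -0.33. Of the 5 subunit genes of the interleukin-12 family, 1 was at least 1.5-fold lower and 0 higher, with a median of -0.40.

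TNF superfamily ligands, membrane or secreted proteins by which dendritic cells instruct T cells, held several of the lower genes. Tnfsf4, the OX40 ligand, was at 10.52 and 7.68 under LPS, and at 8.28 and 5.90 without it. Silenced cells with LPS thus had less Tnfsf4 signal than control cells without LPS. Tnfsf15 (TL1A) was at 12.28 and 11.03 under LPS, while its levels without LPS, 9.19 and 8.86, lay closer together. Tnfsf8 (CD30 ligand) was at 10.48 and 9.41, and Cd70, the ligand of CD27, was at 7.95 and 6.93. Tnfsf10, the death ligand TRAIL, had a difference of -0.75. The 1 ligand at least 1.5-fold higher was Tnfsf13b, the B cell survival factor BAFF, at 8.42 with control siRNA and 9.23 with NR4A3 siRNA. Tnf was at 10.39 and 10.40. In all, 5 of 15 measured ligands were at least 1.5-fold lower and 1 higher, with a median of -0.04, and 10 were past the filter.

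Among TNF receptors, the counts were 2 lower and 2 higher of 19, with a median of 0.0016. Tnfrsf11a (RANK), a survival receptor of dendritic cells, was at 9.52 and 8.34 under LPS. Tnfrsf9, the receptor of a T cell co-stimulatory ligand, was at 11.91 and 10.81. Tnfrsf13c, the BAFF receptor, was on the other side, at 7.71 and 8.94, where both unstimulated arrays lay at 7.13 and 7.20. The death receptor gene Tnfrsf21 was at 10.01 and 10.62. Cd40, through which T cells license dendritic cells, was equal with either siRNA under LPS, at 12.28, although it was lower in silenced cells without LPS, at 7.27 against 8.39.

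Maturation markers and B7 co-stimulatory molecules were lower on the whole. Cd83, a membrane marker of mature dendritic cells, was at 12.36 and 10.63 under LPS, and at 11.09 and 8.44 without it. Cd86, a ligand of CD28, was at 11.51 and 10.44, and its relative Cd80 was at 12.28 and 11.53. For these 3 genes the level with LPS was above the level without LPS under either siRNA, and the silenced cells stood below the controls. Ccr7, the lymph node homing receptor, was at 13.38 and 12.64 under LPS, a difference of -0.74, and at 12.99 and 9.46 without it. Fscn1, which bundles actin in dendrites, was at 13.34 and 12.68, against 12.24 and 8.95 without LPS. The gap between the siRNAs was therefore smaller with LPS for Ccr7 and Fscn1. The inhibitory ligands Cd274 and Pdcd1lg2 differed by -0.16 and -0.28, and the ICOS ligand gene Icosl by 0.36. Vsir, an inhibitory B7 relative, was on the higher side at 0.63. Of 14 measured members, 6 were at least 1.5-fold lower and 1 higher, and the median difference was -0.36. Ccr7, Fscn1 and Relb are among the 6 and count again in other lists below.

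Other cytokine genes that LPS raises were lower in part. Il6, a pleiotropic inflammatory cytokine, was at 11.23 and 10.28 under LPS and near 5.68 and 5.46 without it. Lif was at 7.07 and 6.31, the second value under the filter. Il10 was under the filter on all 4 arrays and was highest, at 6.10, in control cells with LPS. Of 12 members of the interleukin-6 and interleukin-10 groups, 2 were at least 1.5-fold lower and 0 higher, with a median of -0.24 and 5 members past the filter. The interleukin-15 axis had 3 lower and 0 higher of 11. Il15 stood at 10.65 and 9.79, and Il15ra, which presents it to lymphocytes, stood at 10.34 and 9.43. Il2ra, the high-affinity chain of the interleukin-2 receptor, was at 11.99 and 11.06. Among 12 genes of the interleukin-1 family, Il33 was at 10.31 and 9.17, and the decoy receptor gene Il1r2 was at 8.86 and 7.79. Il1rap, the shared receptor chain, was at 7.72 and 8.32. That list counted 2 lower and 1 higher, and the level of Il1b itself was 13.21 and 13.18.

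Chemokines differed gene by gene, with no common direction. Cxcl9, an interferon-induced ligand of CXCR3, was at 9.36 with control siRNA and 11.12 with NR4A3 siRNA under LPS, and at 5.70 and 5.95 without it. Cxcl10, a ligand of the same receptor, was at 11.04 and 10.13, and Cxcl11, the remaining one, was at 11.29 and 10.85. The 3 ligands of CXCR3 had differences of 1.75, -0.91 and -0.45. Ppbp, a neutrophil-attracting chemokine precursor, was at 9.36 and 10.54, and its levels without LPS were higher, at 11.85 and 12.27. Cx3cl1 was at 10.25 and 9.17. The monocyte attractants Ccl2 and Ccl7 had differences of 0.71 and 0.63, and Ccl24 had one of -1.10 with the silenced array under the filter. The median was 0.045 over 16 CXC and other chemokines, of which 2 were lower and 2 higher. It was 0.065 over 17 CC chemokines, of which 1 was lower and 2 higher.

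The chemokine receptors and integrins that differed by 1.5-fold or more stood lower in silenced cells, and most members of both lists differed by less. Cxcr4, the receptor of Cxcl12, was at 9.83 and 8.26 under LPS, and at 10.25 and 9.32 without it. Cxcr5, the receptor that leads cells to B cell follicles, was at 7.46 and 6.25, the latter under the filter, as were both unstimulated arrays. It passed the filter only through the control array with LPS, a selection that favours a lower call. Itgb8, an integrin that activates TGF-beta, was at 9.98 and 8.60 and also depended on LPS, with 6.54 and 5.79 on the unstimulated arrays. Vcam1 was at 9.36 and 7.70 under LPS and at 7.26 on both arrays without it. Its binding partner chain Itga4 was at 11.38 and 10.40. Over 20 chemokine receptors, 3 were at least 1.5-fold lower and 0 higher, with a median of -0.11, 12 members below 0 and 9 members past the filter. Over 18 integrins, the counts were 2 and 0, while the median was 0.096 and 6 members were below 0. Of 20 genes of the cytoskeleton and dendrites, 4 were lower and 0 higher. The largest difference was that of Arap2, a regulator of Arf GTPases, at 8.93 and 6.47, the latter under the filter.

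**Figure D2:**
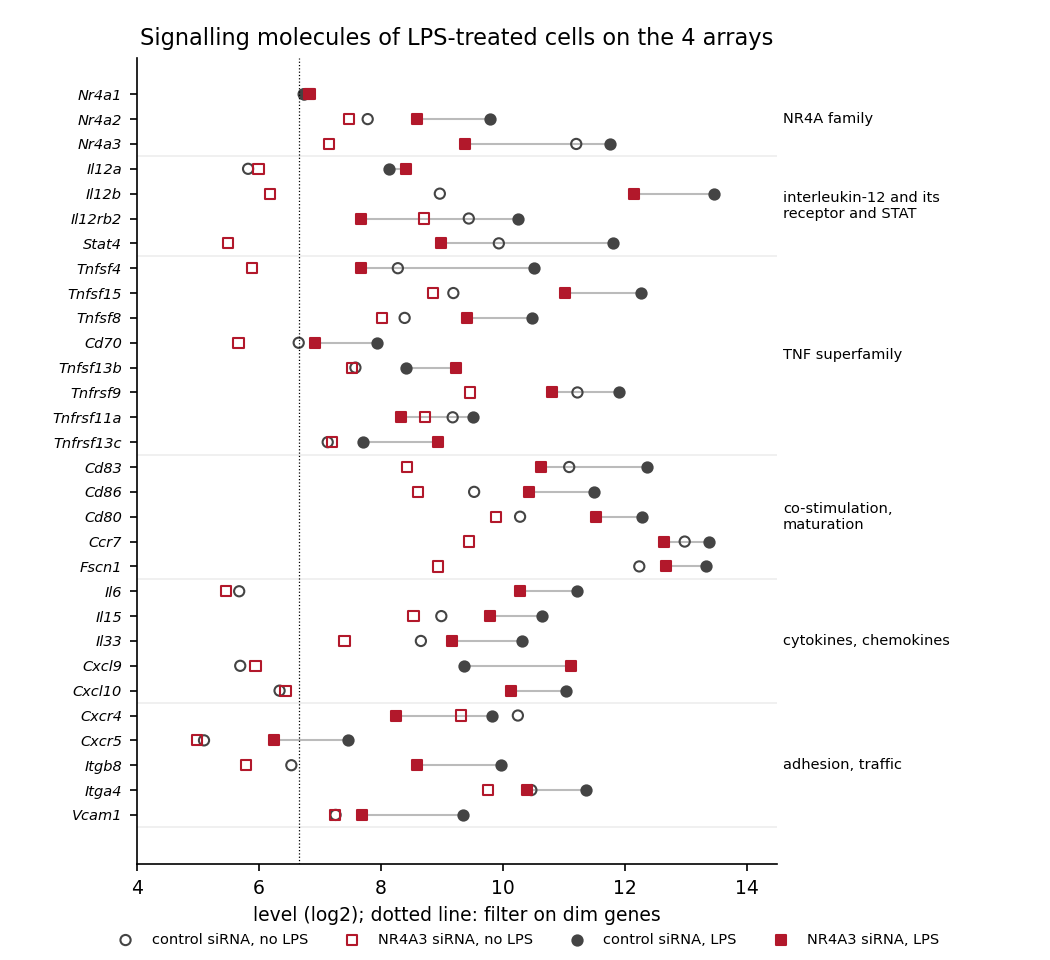
Log2 levels of 30 signalling genes on the 4 arrays (horizontal axis), 1 row per gene, with circles for control siRNA and squares for NR4A3 siRNA, open without LPS and filled with LPS. A grey line joins both arrays with LPS, and the dotted line marks the filter at 6.66. The filled square lies left of the filled circle for Tnfsf4, Stat4, Il12rb2 and Cd83 and right of it for Cxcl9, Tnfsf13b and Tnfrsf13c.

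Among transcription factors and their regulators, lower values were found in the NF-kB pathway. Map3k14, the kinase NIK of the alternative pathway, was at 9.68 and 8.15 under LPS, and at 8.92 and 7.25 without it. Relb, the subunit that this kinase releases, was at 9.31 and 8.66, and Rel was at 12.38 and 11.61. The adaptor genes Traf1 and Birc2 both had a difference of -0.88, although a dimmer probe set of Birc2 gave -0.17. Ikbkb, a kinase of the classical pathway, had one of -0.70, and Nfkbiz one of -0.60. Of 22 measured genes, all past the filter, 7 were at least 1.5-fold lower and 0 higher, with a median of -0.22. The median without LPS was -0.25.

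Interferon regulatory factors that define dendritic cell subsets were lower too. Irf4 was at 11.17 and 9.89, and Irf8 at 13.38 and 12.18. The subset factor Batf3 had a difference of -0.42, and Zbtb46, a factor that marks classical dendritic cells, was at 7.46 and 6.82. Nfil3 had a difference of -0.88, Bcl6 one of -0.71 and Runx3 one of -0.71. Cebpa, a myeloid factor, was on the higher side at 8.59 and 9.27. Of 21 dendritic cell and macrophage factors, 6 were lower, 1 was higher and the median was -0.09. Over the 14 interferon regulatory factors and STATs, 4 were lower (Stat4, Irf4, Irf8 and Stat3) and 0 higher. Irf1, Irf5 and Stat2 differed by -0.25, -0.23 and -0.30. Early response factors had 0 lower and 2 higher of 18, namely Fos at 7.16 and 7.90 and Batf at 8.73 and 9.48.

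Feedback genes of kinase signalling were lower in part. Dusp5, a nuclear ERK phosphatase, was at 11.16 and 9.59 under LPS, and at 10.35 and 9.23 without it. Dusp14 was at 8.48 and 7.02 under LPS, and at 6.81 and 6.68 without it. Dusp16, a phosphatase of JNK and p38, was at 10.55 and 9.39. Zfp36, which destabilises cytokine mRNA, had a difference of -0.63, and Dusp3 had one of 0.59. The count over 16 genes was 4 lower and 1 higher, with a median of -0.10. Of 13 SOCS and feedback genes, 1 was lower, Socs2 at 12.36 and 11.35, and the LPS-induced Socs1 and Socs3 differed by -0.29 and 0.05.

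Of 22 genes of cyclic AMP signalling, 5 were at least 1.5-fold lower and 0 higher, while 11 were below 0 and the median was -0.05. The 5 were Adcy6, Ramp3, Pde4d, Pde4b and Crem. Adcy6, an adenylyl cyclase, was at 9.60 and 7.38 under LPS, and at 8.80 and 6.30 without it. Ramp3, which pairs with the calcitonin receptor-like receptor, was at 10.62 and 9.33, and that receptor, Calcrl, differed by -0.43. The phosphodiesterases Pde4d and Pde4b, which break down cyclic AMP, had differences of -0.98 and -0.76, and the responsive factor Crem had one of -0.68. Genes outside that list that act on cyclic nucleotides were grouped here after their values were seen. Gpr65, a proton-sensing receptor that raises cyclic AMP, was at 10.79 and 8.84, and at 9.82 and 8.96 without LPS. Npr1, the guanylyl cyclase receptor of atrial natriuretic peptide, was at 8.49 and 6.22, the latter under the filter. Prostaglandin receptor Ptger4, which also signals through cyclic AMP, was at 10.73 and 9.78, and its relative Ptger2 was on the higher side at 0.68. Nppc, a natriuretic peptide gene, was at 9.20 and 10.40 under LPS.

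Killer-cell lectin-like receptors included the gene with the largest difference of all. Klri2 was at 10.39 with control siRNA and 6.41 with NR4A3 siRNA under LPS, and at 5.99 and 4.67 without it. Only control cells with LPS had a level past the filter among the 4 arrays. Its neighbour Klri1 was at 7.29 and 5.31, and Klrd1, the CD94 chain, was at 8.24 and 6.42. Klrk1, the NKG2D receptor, was at 9.73 and 8.79. Klrb1a and Klrb1f, of a related subfamily, were on the higher side at 0.74 and 0.87. Near-identical copies could share probes, so single values in this family are uncertain. Of 13 measured members, 8 were past the filter, 4 were at least 1.5-fold lower and 2 higher, with a median of -0.09. Among all genes past the filter, 4.73% were lower and 3.73% higher. Klri2, Klri1 and Klrd1 passed the filter only through the control array with LPS, a selection that favours lower calls. Of 9 NK cell markers, 2 were past the filter, Klrd1 and Ccl5, and the defining markers Ncr1, Eomes, Gzma and Gzmb stayed at or below 5.43 with LPS.

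SLAM family receptors and Fc receptors gave smaller differences. Slamf7 was at 12.14 and 11.33, Slamf1 at 8.67 and 7.91, and the adaptor gene Sh2d1b1 at 10.02 and 9.10. Slamf8, a receptor of myeloid cells, was on the higher side at 9.52 and 10.60. The SLAM list counted 3 lower and 1 higher of 11. Fcgr4, an activating receptor for IgG, was at 9.89 and 9.27, and Fcrls at 7.88 and 7.12. Of 10 Fc receptor genes, these 2 were lower and 0 higher, and the median was -0.16.

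On the higher side, complement C1q led. C1qb was at 7.82 with control siRNA and 9.85 with NR4A3 siRNA under LPS, and at 10.21 and 11.40 without it. C1qc was at 7.12 and 8.94 under LPS, and at 9.45 and 10.67 without it. C1qa was at 6.58 and 7.60 under LPS, and at 8.04 and 9.15 without it. All 3 chains of the C1q molecule had lower levels with LPS than without it under either siRNA, and the silenced cells stood above the controls in both states. Cd59a, a membrane inhibitor of complement, was at 7.46 and 8.21. Of 17 complement genes, 0 were at least 1.5-fold lower and 4 higher, with a median of 0.14. The C1q genes are adjacent to each other in the mouse gene order, and promoter windows of the 2 genes with the largest differences are shown for that reason. They are the 250 bases before the start from RefSeq (GRCm38.p6), at chr4:136886201-136886450 and chr4:136892915-136893164, both on the minus strand. None of the motifs searched (named below with their letters) was found in them, so they hold no capitals.
C1qb: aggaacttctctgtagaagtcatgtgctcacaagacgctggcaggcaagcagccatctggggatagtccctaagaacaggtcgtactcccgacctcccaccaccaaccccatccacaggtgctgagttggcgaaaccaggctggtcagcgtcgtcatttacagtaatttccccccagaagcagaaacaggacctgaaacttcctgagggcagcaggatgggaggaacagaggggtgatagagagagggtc
C1qc: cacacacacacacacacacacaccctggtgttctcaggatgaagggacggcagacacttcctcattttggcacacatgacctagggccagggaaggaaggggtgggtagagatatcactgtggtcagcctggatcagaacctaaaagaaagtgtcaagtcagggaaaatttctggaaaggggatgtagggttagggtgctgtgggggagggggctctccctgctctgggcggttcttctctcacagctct

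C-type lectins of uptake and a list of Siglec, CD300 and related genes of myeloid cells leaned higher as well, by smaller amounts. Mrc1, the mannose receptor, was at 6.71 and 7.40 under LPS, and at 10.69 and 11.26 without it. Mgl2, a galactose-binding lectin, was at 7.81 and 8.58, and Clec9a, a receptor for dead cells, was at 6.97 and 7.75. Of 17 C-type lectins, 0 were at least 1.5-fold lower and 3 higher, with a median of 0.31. Siglecf, a sialic acid receptor, was at 8.04 and 9.41 under LPS, while its levels without LPS were 10.21 and 9.96. Cd300lb, Cd300ld and Cd22 had differences of 0.76, 0.71 and 0.74. Of 15 Siglec, CD300 and related genes, 0 were lower, 4 were higher and the median was 0.33, which was 0.20 without Siglecf. Without LPS the medians of these lists were 0.17 and 0.09. Cd93, a membrane protein of phagocytes, was at 7.08 and 8.32 under LPS, and at 10.39 and 11.25 without it. Of 18 scavenger and efferocytosis genes, 2 were lower (Marco and Olr1) and 1 higher (Gas6, a bridging ligand for dead cells, with 1 array under the filter), with a median of 0.043.

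Macrophage markers were on the higher side with these groups. Of 11 measured, 0 were at least 1.5-fold lower and 5 were higher, with a median of 0.46 and a range of -0.16 to 2.03. The 5 were Csf1r, Mrc1 and the 3 C1q genes, 4 of which also belong to the groups just described. The log2 of the summed signal of the list was 15.05 with control siRNA and 15.37 with NR4A3 siRNA. Of its bright members, Cd68 was at 12.75 and 13.09 and Cd14 at 12.77 and 12.69. Adgre1, a macrophage surface antigen, was at 12.61 and 13.07, and Fcgr1 at 11.90 and 11.74. The part of macrophage-like cells in the higher genes was not tested. For Siglecf, also an eosinophil marker, the other 5 eosinophil markers measured were under the filter with LPS. Of 6 monocyte markers, 2 were lower, Plac8 at 8.59 and 7.33 and Vcan at 9.91 and 9.04, and 0 higher. Of 11 neutrophil markers, 2 were past the filter, S100a8 at 7.83 and 8.49 and Csf3r at 8.95 and 9.39. Only S100a8 was at least 1.5-fold higher, and Mpo, Elane and Ltf were under the filter. Of 10 mast cell and basophil markers, 3 were past the filter, Kit, Hdc and Gata2, with differences of 0.78, 0.58 and 0.27. Of these only Kit was at least 1.5-fold higher, and Cpa3, Ms4a2 and Mcpt8 were under the filter. Of 7 plasmacytoid dendritic cell and 9 stromal markers, 0 were 1.5-fold apart in either direction.

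Some genes of iron uptake and its regulation were higher. Tfrc, the transferrin receptor, was at 7.02 with control siRNA and 8.68 with NR4A3 siRNA under LPS, and at 8.03 and 8.93 without it. Slc11a2, an iron importer of endosomes, was at 9.35 and 10.22, and Steap3, an iron reductase of endosomes, was at 7.82 and 8.46. Hamp, the hormone hepcidin, was at 9.80 and 10.69. The storage genes Fth1 and Ftl1 differed by -0.03 and -0.02, the regulator Ireb2 by -0.54 and the iron exporter gene Slc40a1 by 0.50. Of 13 measured genes, 0 were at least 1.5-fold lower and 4 higher, with a median of 0.15, against 0.016 without LPS. The zinc importer gene Slc39a10 was likewise higher, at 7.42 and 8.64.

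Most enzymes of sterol synthesis were on the higher side with LPS. Hmgcs1, the enzyme that makes HMG-CoA for sterols, was at 8.99 in silenced cells under LPS, 0.99 above the control, and at 9.16 and 9.75 without it. Hsd17b7, Dhcr7 and Fdps, later enzymes of the route, had differences of 0.85, 0.84 and 0.77, and Sqle was at 8.21 and 8.77. Srebf2, the transcription factor of the route, differed by 0.34, and its inhibitor Insig1 by 0.47. For all of these genes the control cells with LPS had the lowest level of the 4 arrays. Idi1 and Pmvk, also enzymes of the route, went the other way. Idi1 was at 9.78 and 8.36 under LPS and at 10.22 and 8.97 without it. Its other probe set gave a difference of -1.45, but had nearly equal levels on all 4 arrays and may not be a separate measurement. Pmvk was at 9.45 and 8.35. Of 17 measured genes, all past the filter, 5 were at least 1.5-fold higher, 2 lower, and 15 had a difference above 0. The median was 0.49 with LPS and 0.045 without it. The promoter window of Hmgcs1 is shown because that gene has the largest upward difference of the list and holds a match to the sterol response element, searched as TCACNCCAC and marked in capitals at position -137 from the start. It is RefSeq sequence (GRCm38.p6) from chr13:119690101-119690350 on the plus strand. Over 300-base windows, Hmgcs1 was the 1 match among 14 listed genes with a window, where 1.31% of genes past the filter matched.
Hmgcs1: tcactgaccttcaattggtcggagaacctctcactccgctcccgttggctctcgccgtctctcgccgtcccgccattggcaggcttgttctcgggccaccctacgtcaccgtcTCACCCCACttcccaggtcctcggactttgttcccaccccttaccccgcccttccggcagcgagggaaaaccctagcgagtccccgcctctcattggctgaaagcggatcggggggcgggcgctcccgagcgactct

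Other metabolic groups had few members past 1.5-fold. Ndrg1, a hypoxia-response gene, was at 11.43 and 10.14 under LPS and at 10.83 and 10.85 without it, and Pfkfb3, an activator of glycolysis, was at 10.37 and 9.68. The glycolysis list had 2 lower and 0 higher of 18, with a median of 0.15. Ido1, an enzyme of tryptophan breakdown, was at 6.26 and 7.19, and Ido2 at 7.11 and 7.77, while Nos2, the inducible nitric oxide synthase, was at 11.87 and 11.63. Pla2g2d, a secreted phospholipase of lymphoid tissue, was at 8.29 and 9.66. The leukotriene enzyme gene Ltc4s had a difference of -0.73 and Ptgs2, the inducible cyclooxygenase, one of -0.52. The counts were 2 lower and 2 higher over 21 prostaglandin and leukotriene genes, and 0 lower and 2 higher over 12 genes of arginine, nitric oxide, tryptophan and itaconate. Fasn was at 7.67 and 8.29 and Scd1 at 10.43 and 9.57, the 2 members past 1.5-fold among 18 lipid efflux and PPAR or LXR genes. Dhrs3, a retinoid reductase, was at 10.57 and 11.23, the 1 member past 1.5-fold among 14 genes of retinoic acid.

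Proteases, growth factors and junction genes gave differences in both directions. Adam19 was at 10.08 and 8.68, and Mmp25, a membrane metalloproteinase of leukocytes, was at 12.03 and 10.84. Mmp2 and Timp2 were on the higher side at 0.69 and 0.62, and Timp1 on the lower side at -0.69. Over 19 metalloproteinases and inhibitors, 3 were at least 1.5-fold lower and 3 higher, with a median of 0.011. Hgf, a growth factor for epithelium, was at 7.86 and 8.64, and Igf1 differed by 0.46. Over 18 secreted growth factors, 1 was lower and 1 higher, with a median of -0.06. Cldn1, a tight junction protein, was at 7.55 and 8.84 under LPS, and at 9.57 and 7.73 without it, so the silenced cells stood above the controls in one state and below them in the other. F11r, the junction molecule JAM-A, was at 9.05 and 8.34. Over 16 epithelial-type junction and adhesion genes, 3 were lower, 1 was higher and the median was -0.21.

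**Figure D3:**
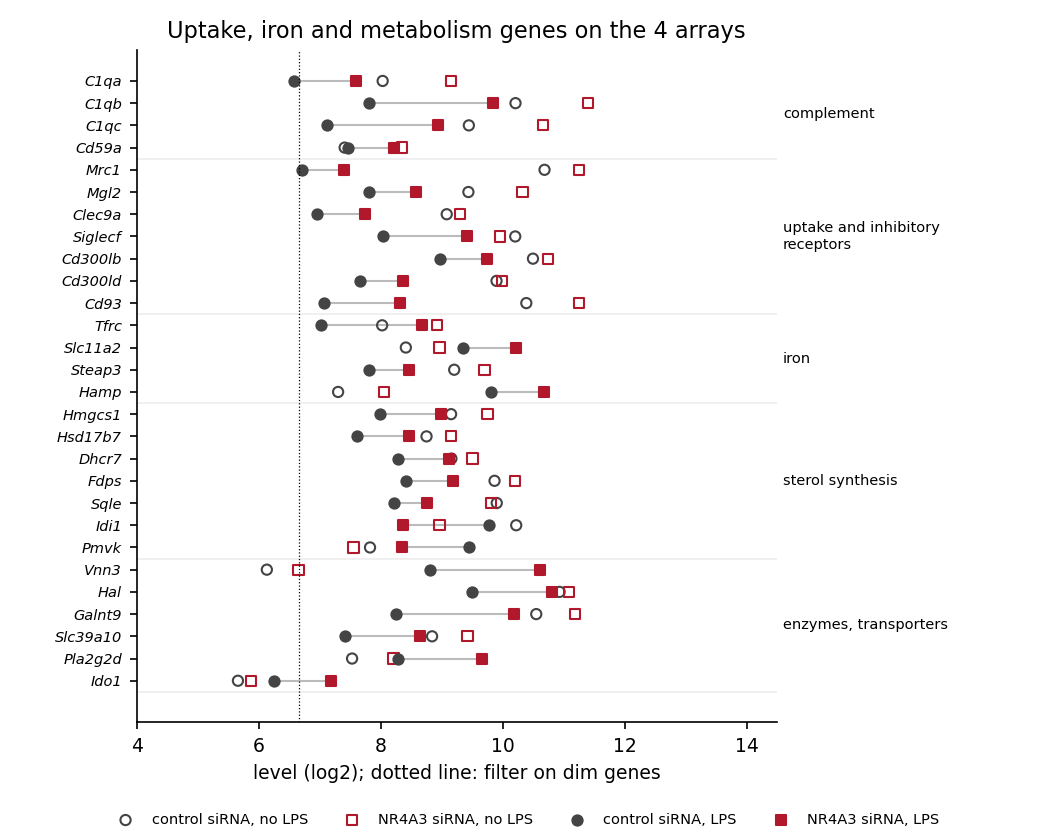
Log2 levels of 28 genes of complement, uptake, iron, sterol synthesis and other enzymes on the 4 arrays (horizontal axis), drawn as in the plot of signalling genes: circles for control siRNA, squares for NR4A3 siRNA, filled with LPS, dotted line at the filter of 6.66. The filled square lies right of the filled circle in all rows but Idi1 and Pmvk.

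Further genes among those with the largest differences are given here, of which Perp and Pdgfc are also members of lists. Perp, a membrane protein of cell junctions and a p53 target, was at 8.67 and 6.06 under LPS, and at 6.49 and 6.57 without it. Wfdc9, of the whey acidic protein family, was at 8.82 and 6.42, and at 5.49 and 5.63 without LPS. Clu, the extracellular chaperone clusterin, was at 11.07 and 8.91, and at 10.64 and 7.39 without LPS. Perp and Wfdc9 were thus set apart only on the control array with LPS, and Clu was lower in both states. Tcaf2, a partner of TRP channels, was at 9.96 and 7.35, and Rerg, a Ras-like growth inhibitor, was at 8.94 and 6.56. Pdgfc, a growth factor for mesenchymal cells, was at 8.12 and 6.23 under LPS, and at 7.49 and 7.56 without it. The silenced cells with LPS were lowest of the 4 arrays for Pdgfc. Adgrg6, an adhesion G protein-coupled receptor, was at 11.20 and 9.09, and Castor2, of the arginine sensor family of mTORC1, was at 10.66 and 8.69. Both probe sets of Castor2 were lower, at -1.97 and -1.67. St8sia4, which adds polysialic acid to membrane proteins, was at 10.82 and 9.06. Icos, better known in T cells, was at 7.68 and 5.86. The remaining genes among the 30 lowest were Plekhs1, Slc27a3, Cmc2, C1ql3, Plppr4, Strip2, Adig, Slc22a23 and Zfand4, with differences of -2.26 to -1.78. In silenced cells with LPS, Perp, Wfdc9, Rerg, Pdgfc, Icos, Plekhs1, Slc27a3, C1ql3, Adig and Zfand4 were under the filter, so their folds are approximate.

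Among the highest genes not yet described, Galnt9, a glycosyltransferase of O-linked sugars, was at 8.25 and 10.19 under LPS, and at 10.55 and 11.19 without it. Vnn3, a pantetheinase, was at 8.81 and 10.61, and at 6.14 and 6.66 without LPS. Hal, which breaks down histidine, was at 9.50 and 10.80, and at 10.94 and 11.09 without LPS. For Galnt9 and Hal, the control cells with LPS were lowest of the 4 arrays, whereas Vnn3 was highest in silenced cells with LPS. Retnla, a marker of alternative activation, was at 6.97 and 8.10, and Dnase1l3, a secreted DNase of dendritic cells, was at 6.70 and 7.98. Tlr2, the receptor of bacterial lipopeptides and a member of the TLR signalling list, was at 10.47 and 11.53. Mmp8, a collagenase of the metalloproteinase list, was at 10.51 and 11.59. Dnmt3aos, an antisense transcript of Dnmt3a, was at 7.13 and 9.09, and Dnmt3a itself at 8.48 and 9.07. Slc36a2, Snap25 and F2rl2 had differences of 1.32, 1.23 and 1.22. The kallikrein genes Klk1b11 and Klk1b8, at 1.53 and 1.12, have near-identical relatives and are uncertain. The others of the 30 highest were Gas2l3, Gpr176, Sh3bp5, Npepl1, Dctd, Alg8 and Asb2, with differences of 1.11 to 1.29.

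Genes of antigen presentation and of the interferon response had small differences. Of 15 measured genes of MHC class I presentation, all past the filter, 0 reached 1.5-fold in either direction, and the differences lay between -0.37 and 0.20. The heavy chain genes H2-K1 and H2-D1 were in the list and were not among the measured genes. Of 14 measured genes of MHC class II presentation, 2 were lower, H2-Oa at 9.45 and 8.83 and H2-Eb2 at 7.20 and 5.77, the latter under the filter. Of 27 type I interferon-stimulated genes, 2 reached 1.5-fold, Ifit1 at 12.01 and 11.36 and Mx1 at 10.63 and 10.03, with a median of -0.18. The interferon-inducible GTPases had 0 of 8 past 1.5-fold in either direction. In TLR signalling, 2 of 25 were lower (Tlr8 at -0.79 and Traf6 at -0.62) and 1 higher (Tlr2), with a median of -0.01. The BCL2 family had 0 lower and 1 higher of 14. Of 13 p53 targets, 3 were lower, namely Perp, Phlda3 and Gadd45b, and 0 higher. Only 5 of the 13 were below 0, and the median was 0.10.

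Proliferation genes had small differences with LPS. Of 21 mitosis genes, 0 were at least 1.5-fold apart with LPS, and 15 were at least 1.5-fold lower without it, where 4.69% of all genes past the filter were lower and 1.62% higher. The medians were -0.09 and -0.78. Plk1, a mitotic kinase, was at 6.58 and 6.22 under LPS and at 9.39 and 8.16 without it. Ccna2, a mitotic cyclin, was at 6.90 and 6.71 under LPS and at 10.14 and 9.08 without it. Only 9 of the 21 were past the filter with LPS, since both LPS arrays were dim for this group. Mki67 was at 8.47 and 8.95 with LPS. DNA replication genes had a median of -0.20 with LPS, with Tyms at 8.48 and 7.78 the 1 member past 1.5-fold of 23.

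**Figure D4:**
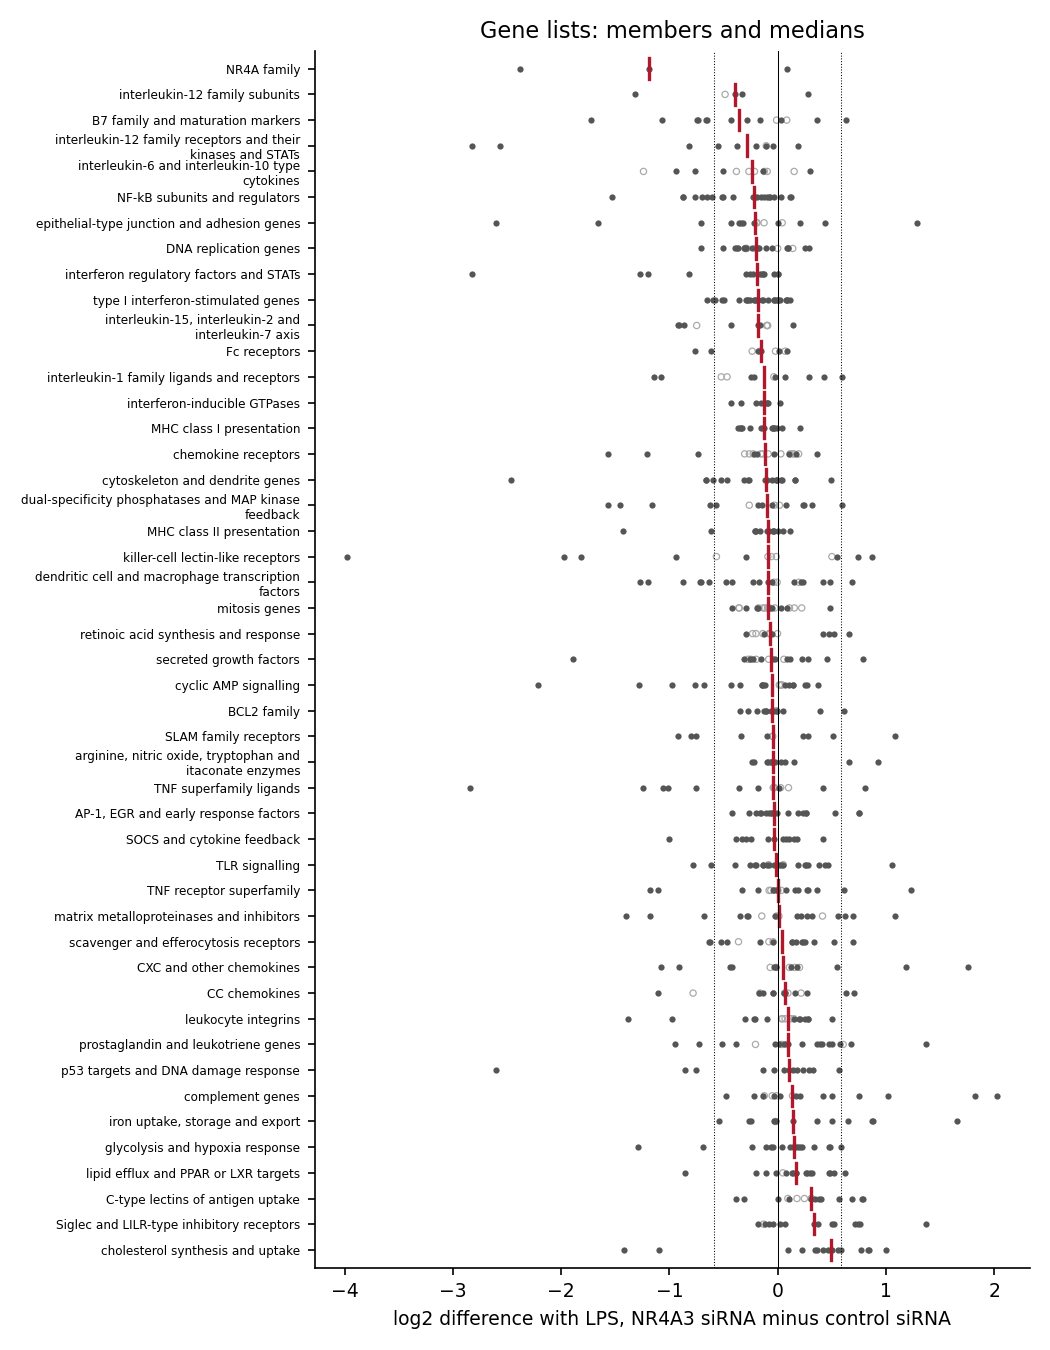
Log2 differences with LPS (horizontal axis, NR4A3 siRNA minus control siRNA) of the members of 47 gene lists, 1 row per list. Filled points are members past the filter, open points members under it, red bars the list medians and dotted lines 1.5-fold. Cholesterol synthesis has the highest median, 0.49, and the NR4A family the lowest, -1.19.

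The difference between the siRNAs was set beside that of the pair without LPS, which shares no array with it. Of the 171 lower genes, 116 (67.8%) were at least 1.5-fold lower without LPS too, and 32 differed by under 1.2-fold there. Of the 48 higher genes, 20 (41.7%) were at least 1.5-fold higher without LPS, and 12 differed by under 1.2-fold. Both counts under 1.2-fold include genes that were under the filter without LPS. Among all genes past the filter, 4.31% stood 1.5-fold or more below and 1.37% above the control without LPS. Counts at 2-fold without LPS were 176 lower (1.72%) and 21 higher (0.205%). The median difference of the lower genes was -1.26 with LPS and -0.90 without it, and that of the higher genes was 1.18 and 0.53.

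Some genes differed under LPS while being nearly equal without it. Besides Perp, Wfdc9, Pdgfc, Vcam1 and Dusp14, the lower ones with the largest differences were C1ql3, Adig, Ch25h, Etfbkmt and Cd34. Ch25h, which makes an antiviral oxysterol, was at 10.93 and 9.46 under LPS, and at 6.37 and 6.21 without it. Cd34, a progenitor surface antigen, was at 7.58 and 6.26, the latter under the filter, and at 7.32 and 7.40 without LPS. Etfbkmt had a second probe set, and the mean of both gave -0.77 in place of -1.47. The higher ones were Cxcl9, Siglecf, Hal, Gpr176, Dnase1l3, Sh3bp5, Tnfrsf13c, Nppc, Mmp8 and Tlr2. This selection set no filter on the unstimulated arrays. Perp, Wfdc9, C1ql3, Adig, Ch25h, Cxcl9 and Dnase1l3 were under the filter on both of them. For these dim genes, near equality without LPS says little about the siRNA difference in that state. Whether any gene of this selection differs between the states beyond the noise of single arrays was not tested.

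**Figure D5:**
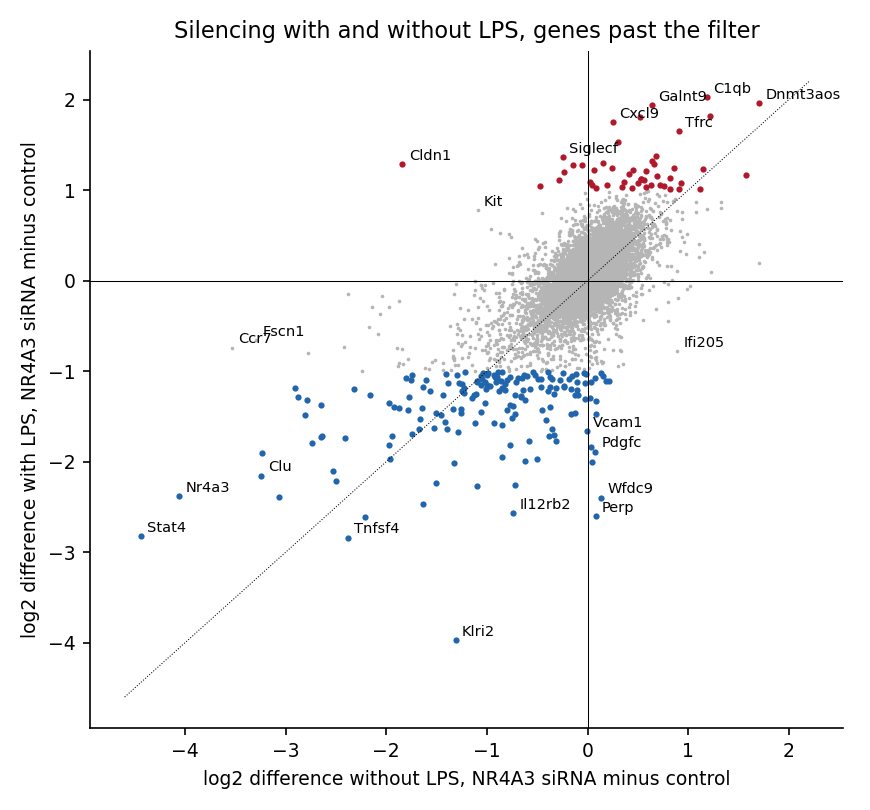
Log2 difference between NR4A3 siRNA and control siRNA with LPS (vertical axis) against the same without LPS (horizontal axis), for the 10210 genes past the filter with LPS. Blue and red points are at least 2-fold lower and higher with LPS, and the dotted diagonal marks equal differences. Stat4 and Nr4a3 lie far from 0 on both axes, Perp and Cxcl9 near 0 without LPS, and Ccr7 and Fscn1 farther from 0 without LPS than with it.

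Some neighbouring genes appeared together among those that differed. In the RefSeq gene order (GRCm38.p6), 26 runs of adjacent measured genes were at least 1.5-fold apart in the same direction with at least 1 gene at 2-fold, 22 of them lower and 4 higher, and 3 runs held 3 genes. Lower runs included Klri1 and Klri2, Klrd1 and Klrk1, Tnfsf15 and Tnfsf8, and Serpinb6b and Serpinb9, inhibitors of granule proteases. Scara3 was lower beside Clu, and Ints3 lay between the lower genes Slc27a3 and Npr1. Polb, Ikbkb and Plat formed another run, with Plat, the tissue plasminogen activator, at 8.68 and 6.98. The higher runs were C1qb, C1qc and C1qa, Dnmt3a and Dnmt3aos, P2ry6 and P2ry2, and Klk1b11 and Klk1b27. These runs were found after their values were known, and overlapping or near-identical genes can share signal.

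Promoter windows, from 250 bases before to 50 after a RefSeq start, were searched on both strands for letters bound by NR4A receptors and other factors. The NR4A response element AAAGGTCA was found in 1 of 132 lower genes with a window (0.758%), in 1 of 41 higher genes (2.44%), in 88 of 8266 genes past the filter (1.06%) and in 1.70% of all 27025 genes with a window. The letters TGATATTT and AAATGCCA form the palindromic element bound by NR4A dimers. Each was found in 1 lower gene (0.758%), Adig and Stat4 in that order, against 0.472% and 0.798% of genes past the filter. The Stat4 match did not lie within the 250 bases before either of its starts. AAATGCCA was also found in 1 higher gene (2.44%), Dnmt3aos. The kappa-B letters GGG and TTTCC with 2 bases between were in 3 lower genes (2.27%) and 1 higher gene, against 2.01%. The interferon-stimulated response element was in 2 lower genes (1.52%) and 1 higher gene, against 3.90%. The MARE half-site TGCTGAC, bound by MAF factors, was in 4 lower genes (3.03%) and 5 higher genes (12.2%), against 4.45%, and 2 of the 5 are the near-identical Klk1b11 and Klk1b8. The sterol response element TCACNCCAC was in 2 lower genes (1.52%) and 1 higher gene (2.44%), against 1.31%. In the sterol synthesis list it was in 1 of 14 genes with a window. A match is a description of letters, and a window without a match says nothing of binding elsewhere. The lower gene with the NR4A element was Rtl9, a retrotransposon-derived gene named here for that match and not for its difference of -1.48 (7.37 and 5.90 under LPS, the latter under the filter). Its window, RefSeq GRCm38.p6 chrX:143099344-143099593 on the plus strand, is shown with the match in capitals, on the opposite strand at position -103 from the start. The higher gene was Dctd.
Rtl9: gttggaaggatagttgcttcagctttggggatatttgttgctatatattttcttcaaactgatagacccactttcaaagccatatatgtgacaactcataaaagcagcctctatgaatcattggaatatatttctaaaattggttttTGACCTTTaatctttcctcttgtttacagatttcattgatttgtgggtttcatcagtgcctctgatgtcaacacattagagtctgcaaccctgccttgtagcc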

How the data were processed

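The study used Affymetrix Mouse Gene 1.0 ST arrays, 1 per condition, on total RNA of dendritic cells grown from bone marrow. The deposited table holds log2 values, which per the labels came from RMA with quantile normalization. Affymetrix Expression Console 1.1 is named by the submitters' processing notes. The genome build is not given in the sources used here. Quantile normalization gives all arrays the same distribution (medians 6.37 to 6.42), so a shift of most genes in one direction would not be visible. Values ran from 4.21 to 14.27. None lay below 4, the log2 of 16, and whether a constant of 16 was added before the log2 is not stated. A constant would shrink differences of dim genes.

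Of 28856 probe sets, 21789 had a single symbol in the platform annotation, 1621 had several and 5446 had none here. Gene identifiers of 21698 were found in RefSeq, and 0 symbols were updated. Of 19938 genes, 999 had several probe sets and were read from the one with the highest mean. Values of near-identical genes (the Klri, Klk1b, Cd209 and Ifi200 families) are uncertain.

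A difference is NR4A3 siRNA minus control siRNA, counted at 2-fold, or 1.5-fold within lists, when the brighter array reached 6.66. A comparison of 2 arrays allows no test. Counting was tested on simulated data. The members and lists were chosen with earlier results of these data known: 47 pathway lists (812 entries, 745 measured) and 12 marker lists (115 entries, 101 measured). Named genes are the NR4A family, the 30 lowest and 30 highest past the filter and 2-fold (without gene models, small RNAs, olfactory-type receptors, pseudogenes and receptor segments), up to 6 members per list by size of difference with members of central role, the 10 largest per direction under 1.2-fold without LPS, and genes with opposite directions in the 2 states. Genes of neighbour runs and promoter matches were named after their values were seen. Alternatives were other fold thresholds and filters, averaging of probe sets or the brightest over the LPS arrays, median centring, repeated quantile normalization, cyclic loess (limma 3.58.1 in R 4.3.3), loess within the pair and, chosen after seeing the data, subtraction of 16. Other steps used Python 3.11.15 with pandas 2.3.3 and numpy 2.4.6.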

Additional observations from a re-analysis of the deposited data

Results flagged for a closer look

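Opposite directions of the siRNA difference with and without LPS, each at least 1.5-fold, were found for 3 genes, and the difference between the states was not tested for any of them. Cldn1, a tight junction protein, had a difference of 1.29 with LPS and -1.84 without it. Ifi205, an interferon-inducible gene with near-identical relatives, had a difference of -0.78 with LPS and 0.89 without it, with levels of 12.14 and 11.36 under LPS and 6.62 and 7.51 without it. Kit, the receptor of stem cell factor, had a difference of 0.78 with LPS and -1.09 without it, with levels of 7.21 and 7.99 under LPS and 6.97 and 5.88 without it. The unstimulated levels of Ifi205 in control cells and of Kit in silenced cells lay under the filter.

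Signal was also found in probe sets outside the named genes. Of 7067 probe sets with several symbols or none, 2265 were past the filter with LPS, and among them 15 were lower in silenced cells by 2-fold or more and 5 were higher by as much, with differences of -3.67 to 1.58.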

How the results depend on the processing

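No paired analysis was possible because each condition has 1 array and the labels carry no replicate numbers. Without replicates no alternative leaves out a sample. At 1.5-fold the counts were 483 lower and 381 higher with LPS, and 481 and 166 without it. At 3-fold they were 44 and 7 with LPS, and 63 and 5 without it. A filter at the 75th percentile (8.67) gave 102 lower without LPS. The 4 counts stayed within 1.5 times the reported ones under the other settings, and with LPS the subtraction of 16 gave 199 lower and 61 higher. The share of lower genes at 2-fold with LPS was 78.1%, and 76.5% to 83.4% under the scalings, but 55.9% at 1.5-fold. Of 188 named genes at least 1.5-fold apart, 0 reversed direction under 5 settings, and of 59 list medians 0 reversed. Subtraction of 16 cannot change a sign, and the scalings shifted genes by at most 0.017 at the median. A reversal of such a named gene was therefore unlikely from the outset. Of 372 named genes, 61 shifted by more than 0.11 when 16 was subtracted, with Klri2 19.1-fold in place of 15.7-fold lower, and 8 shifted with the mean of probe sets. With members past the filter alone, 15 list medians shifted, among them TNF ligands to -0.55 and killer-cell receptors to -0.62, a selection that favours members high in one array. Dim signal, under 6.66, limits the folds of 32 lower and 3 higher genes.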
